A study of Mus musculus with 5 samples.

Results

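The HoxC cluster genes are the 9 Hox genes that lie together on mouse chromosome 15, Hoxc4, Hoxc5, Hoxc6, Hoxc8, Hoxc9, Hoxc10, Hoxc11, Hoxc12 and Hoxc13. They were picked by symbol from the 32285 genes counted in each of 5 single cell RNA sequencing libraries. All 9 were among the genes counted in all 5 libraries, though Hoxc12 had 0 UMIs in the FGFRi library. Each library came from a culture of EpiSCs, a mouse epiblast stem cell line of wild-type genotype on a 129 background, differentiated for 3 days in N2B27 medium with 1 µM CHIR99201 (Chi), an inhibitor of GSK3 that activates Wnt signaling, and 8 ng/ml BMP4. The cultures differed in FGF signaling. The FGFRi library had 30 nM of the FGF receptor inhibitor AZD4547, with no FGF2 dose given in its label, and the others had no FGF2 (0 ng/ml) or 0.75, 3 or 12 ng/ml FGF2. With 1 culture and 1 library per condition there was no replicate, so no difference between conditions could be tested, and each 95% interval below covers counting error only.

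Hox genes encode homeodomain transcription factors that give cells their position along the head to tail axis. In the embryo, genes at the 3′ end of a Hox cluster are switched on first and more anteriorly and genes at the 5′ end later and more posteriorly, an order known as colinearity, and the group number of each gene rises toward the 5′ end. Cdx factors, with Wnt and FGF signals, are known to activate the central Hox genes in the posterior epiblast, where the cells that make the trunk are formed. Outside this role, Hoxc13 is known for its part in hair and nail keratin expression.

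On GRCm38 (GENCODE vM21 annotation) the 9 genes lay within chr15:102921103-103036852, a span of 115750 bases, all on the plus strand. By the 3′ ends of their gene models, the order from the 5′ end of the cluster was Hoxc13, Hoxc12, Hoxc11, Hoxc10, Hoxc9, Hoxc8, Hoxc6, Hoxc5 and Hoxc4. The annotated gene model of Hoxc5 started upstream of Hoxc9, and it shared 166 exonic bases with Hoxc10 (chr15:102967443-102967608), the only exonic overlap found between members, so that reads from this stretch are uncertain for both genes. Of the 22 annotated features within 100000 bases of the members, 15 were in the files. The 6 that were no members, all long noncoding RNAs, were close to silent: Hotair, transcribed from the minus strand between Hoxc12 and Hoxc11, had 0, 1, 0, 0 and 3 UMIs in the FGFRi library and at 0, 0.75, 3 and 12 ng/ml FGF2. Gm49477 had 0, 6, 18, 17 and 24 UMIs. The microRNA genes of the cluster were not analysed here.

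The members differ in the coding sequence for the third helix of the homeodomain, the helix that contacts DNA, and this stretch is shown for 6 of them, from Hoxc13 to Hoxc8, to tell them apart. These 30 bases lie in the last exon of each gene, in coding sequence, and are read from the reference transcripts of the same annotation. Capitals mark the bases that differ from Hoxc8 at the same place.
Hoxc13, chr15:102927345-102927374: aCCatCtggttccagaatcgaCgCGtgaaA
Hoxc12, chr15:102938443-102938472: aagatttggttccagaaCcgGagAatgaaA
Hoxc11, chr15:102956615-102956644: aaAatttggttTcagaaCAgGagAatgaaA
Hoxc10, chr15:102970983-102971012: aaAatCtggttTcaAaatcgCagAatgaaA
Hoxc9, chr15:102984065-102984094: aaAatCtggttTcagaaCcgGaggatgaag
Hoxc8, chr15:102992706-102992735: aagatttggttccagaatcgaaggatgaag
Over the whole homeobox, the 180 bases that code for the DNA-binding homeodomain, the identity among these 6 ranged from 53.3% for Hoxc13 and Hoxc8 to 71.7% for Hoxc10 and Hoxc9. Against Hoxc8 it was higher for genes nearer to it, with 54.4% for Hoxc12, 58.3% for Hoxc11 and 64.4% for Hoxc9.

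The retained cells, those with at least 2500 detected genes and at most 10% mitochondrial UMIs, numbered between 1696 and 2725 per library, 10653 in all, with a median depth of 24408 to 29661.5 UMIs per cell. A UMI is a barcode of a captured RNA molecule, and with counting at the 3′ end a molecule gives 1 UMI whatever the length of its gene. Whether RNA of different genes was captured and counted equally well was not tested, so levels of different genes are compared as counted. Summed markers of the epiblast, the tissue of origin, were between 72.0 and 133.9 CPM per library, and 4 or 5 of the 8 listed genes were at 5 CPM or more. Libraries shared few cell barcodes, 7 among the retained cells over all pairs.

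The HoxC genes were low with the FGFRi and about an order of magnitude higher in every culture without it. Their summed level was 30.8 CPM (UMIs of the gene per 1000000 UMIs of the retained cells, 95% interval 29.2 to 32.4) in the FGFRi library, 286 CPM (282 to 290.6) at 0 ng/ml FGF2, 381 CPM (377 to 385.5) at 0.75 ng/ml, 399 CPM (395 to 404) at 3 ng/ml and 329 CPM (324 to 333) at 12 ng/ml. The level was thus highest at 3 ng/ml and lower again at 12 ng/ml. These levels rest on 1471, 16257, 31089, 25806 and 23260 HoxC UMIs, in the same order of conditions.

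Along the cluster the levels formed a plateau of central genes with low 5′ genes. Hoxc8, of the central group, was the highest member in all 4 cultures without the inhibitor, at 104 (102 to 107), 150.3 (148 to 153), 162 (159 to 165) and 127 (125 to 129.9) CPM from 0 to 12 ng/ml FGF2, and was at 7.84 CPM (7.07 to 8.68) with the FGFRi. Its 5′ neighbor Hoxc9 was second, at 86.8, 109, 104 and 82.3 CPM from 0 to 12 ng/ml. With the FGFRi, Hoxc9 was the highest member, at 11.6 CPM (10.7 to 12.7).

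Toward the 3′ end the levels went down, but not in the order of the genes. Hoxc6 had 4.31 CPM in the FGFRi library against 49.7, 64.5, 69.1 and 61.1 CPM from 0 to 12 ng/ml FGF2. Hoxc5 was well below both of its neighbors without the inhibitor, at 1.23 CPM with the FGFRi and 5.56, 7.20, 7.94 and 7.76 CPM. Hoxc4, the gene at the 3′ end, had 1.61 CPM in the FGFRi library against 23.2, 36.1, 42.0 and 33.4 CPM. The intervals of neighbors in this order of levels did not overlap in any of the 4 cultures without the inhibitor, from Hoxc8 through Hoxc9, Hoxc6 and Hoxc4 down to Hoxc10 and Hoxc5. With the FGFRi, Hoxc4 and Hoxc5 had overlapping intervals (1.27 to 2.01 and 0.939 to 1.59 CPM), as did Hoxc6 and Hoxc13 (3.74 to 4.94 and 2.91 to 3.97 CPM).

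The 5′ part of the cluster was mostly silent. Hoxc10, of the group expressed from the posterior trunk on, had 0.648 CPM (0.440 to 0.920) in the FGFRi library against 14.4, 13.1, 13.4 and 15.7 CPM from 0 to 12 ng/ml FGF2. Hoxc11 had 3, 28, 25, 23 and 42 UMIs, at most 0.593 CPM. Hoxc12 had 0, 2, 1, 2 and 2 UMIs, at or under the limit of 3 UMIs that a count of 0 allows, in every library. In the 4 cultures without the inhibitor the step from Hoxc10 to Hoxc11 was the largest fold drop between neighbors that both had more than 3 UMIs.

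Hoxc13, at the 5′ end, ran against the others. It was at 3.41 CPM (2.91 to 3.97, 163 UMIs) with the FGFRi, 1.39 CPM (1.10 to 1.73, 79 UMIs) at 0 ng/ml FGF2, 0.797 CPM (0.615 to 1.02, 65 UMIs) at 0.75 ng/ml, 0.495 CPM (0.339 to 0.699, 32 UMIs) at 3 ng/ml and 0.480 CPM (0.333 to 0.671, 34 UMIs) at 12 ng/ml. The interval with the FGFRi lay above those of all 4 other libraries, and those at 3 and 12 ng/ml overlapped. Hoxc13 gave 11.1% (9.52% to 12.8%) of the HoxC UMIs with the FGFRi and between 0.124% and 0.486% in the others.

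**Figure D1:**
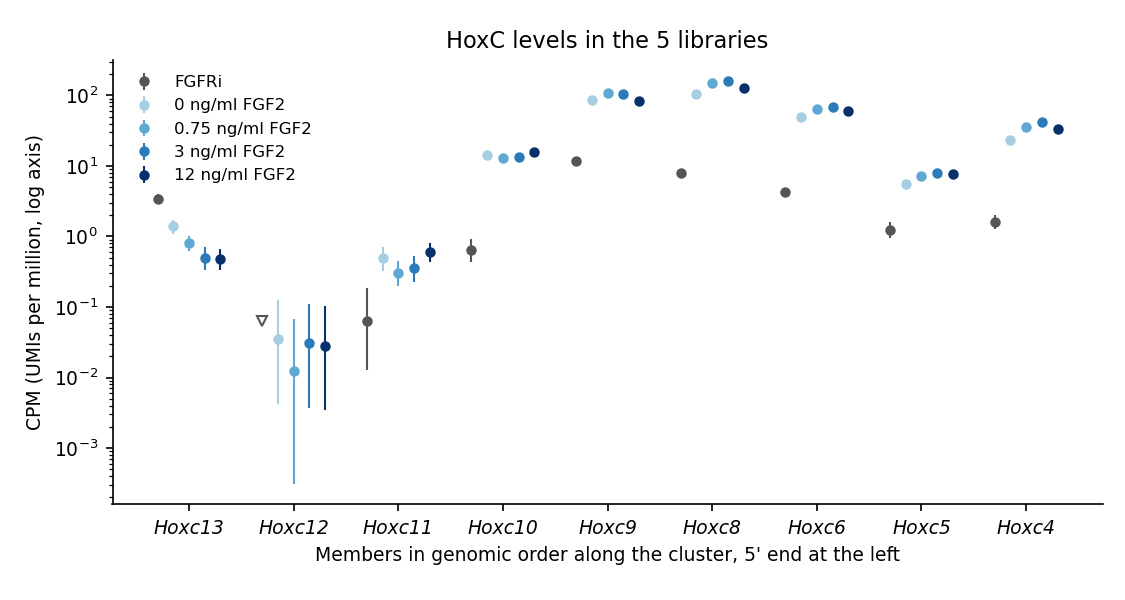
Level of each HoxC gene in CPM (log axis) in the 5 libraries, with the genes in genomic order from the 5′ end. Points are single libraries, bars are exact Poisson 95% intervals for counting error, and the open triangle stands at the level of 3 UMIs where Hoxc12 had none; Hoxc8 and Hoxc9 form the top without the inhibitor, and Hoxc13 alone is highest with the FGFRi.

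The first comparison sets the culture with the FGF receptor inhibitor beside the one without FGF2. Since no FGF2 dose is given for the former, the cultures may differ in both. The paper reports that ERK phosphorylation was lowered only mildly at this inhibitor dose, so the receptors cannot be taken as fully blocked. The paper also reports a strong change in the cells' transcriptional state at this dose. In its reporter experiments, the inhibitor did not lower a Spry4 reporter below its level without FGF. A gene was counted as past the fold rule when it reached 1 CPM in either library and its ratio was at least 2. Of the 9 members, 7 reached 1 CPM and all 7 were past the rule, 6 higher and 1 lower at 0 ng/ml FGF2 than with the FGFRi. Over all 12828 genes at 1 CPM, 12.3% were past it, 4.43% higher and 7.9% lower at 0 ng/ml. The median log2 ratio was 3.53 over the 7 members and −0.01 over all genes.

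Some ratios differed between members by more than counting error, and their size did not follow the order of the genes. Hoxc10 was 22.3-fold higher at 0 ng/ml than with the FGFRi (15.6 to 33.0), Hoxc4 14.4-fold (11.5 to 18.4), Hoxc8 13.3-fold (12.0 to 14.8) and Hoxc6 11.5-fold (10.0 to 13.4). The smallest of the 6 were those of Hoxc9, 7.46-fold (6.83 to 8.15), and Hoxc5, 4.51-fold (3.41 to 6.06). Hoxc11 went from 3 to 28 UMIs, a ratio of 7.86 with an interval of 2.43 to 40.4, and stayed under 1 CPM. Hoxc13 was 2.45-fold lower at 0 ng/ml, with a ratio of 0.408 (0.308 to 0.537).

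**Figure D2:**
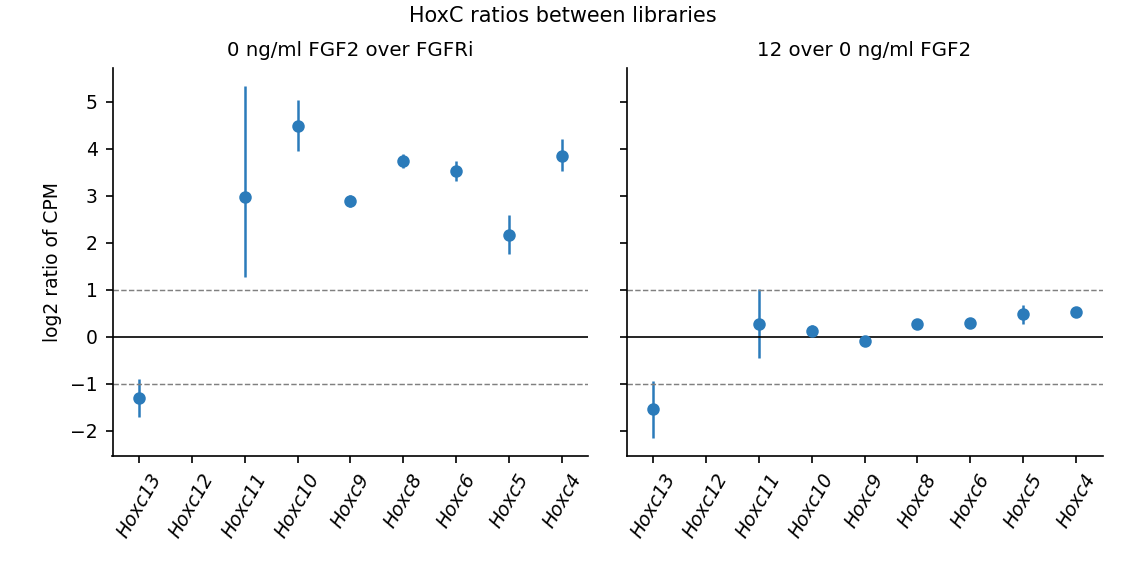
log2 ratio of CPM for each HoxC gene in genomic order, at 0 ng/ml FGF2 over FGFRi (left) and at 12 over 0 ng/ml (right), with exact 95% intervals for counting error; dashed lines mark a ratio of 2 in either direction, and Hoxc12 has too few UMIs for a ratio. On the left the members other than Hoxc13 lie between 2.17 and 4.48, and on the right these same genes lie between −0.08 and 0.52.

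The second comparison concerns the FGF2 dose. From 0 to 0.75 ng/ml, none of the 7 members at 1 CPM was past the fold rule (3.51% of 12579 genes were, 0.89% as higher and 2.62% as lower), and the largest ratios were those of Hoxc4, 1.55 (1.45 to 1.66), and Hoxc8, 1.44 (1.39 to 1.48). From 0.75 to 3 ng/ml none of 6 was past it (2.03% of all genes were, 0.624% as higher and 1.41% as lower), with ratios between 0.957 for Hoxc9 and 1.17 for Hoxc4. From 3 to 12 ng/ml again none of 6 was past it (0.523% of all genes were, 0.274% as higher and 0.25% as lower), and 5 of the 6 were lower at 12 ng/ml, with Hoxc8 at a ratio of 0.787 (0.765 to 0.809), Hoxc9 at 0.789 (0.761 to 0.817) and Hoxc4 at 0.795 (0.752 to 0.840). Hoxc10 was the exception, at 1.17 (1.07 to 1.28).

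Over the whole range from 0 to 12 ng/ml, 1 of 7 members was past the rule, where 10.3% of 12686 genes were, 3.58% as higher and 6.77% as lower. This was Hoxc13, 2.89-fold lower at 12 ng/ml, with a ratio of 0.345 (0.224 to 0.523). From Hoxc9 to Hoxc4 the ratio was larger toward the 3′ end, with 0.948 (0.913 to 0.985) for Hoxc9, 1.22 (1.18 to 1.26) for Hoxc8, 1.23 (1.17 to 1.29) for Hoxc6, 1.39 (1.21 to 1.61) for Hoxc5 and 1.44 (1.34 to 1.54) for Hoxc4. The intervals of Hoxc8 and Hoxc6 overlapped, and that of Hoxc5 overlapped those of Hoxc8, Hoxc6 and Hoxc4. Hoxc10, at 1.09 (0.993 to 1.19), was out of this order. Between the libraries the balance within the cluster thus shifted a little toward the 3′ end. Hoxc9 gave 30.3% (29.6% to 31.1%) of the HoxC UMIs at 0 ng/ml FGF2 and 25.1% (24.5% to 25.6%) at 12 ng/ml, and Hoxc4 gave 8.11% (7.70% to 8.54%) and 10.2% (9.78% to 10.6%). With the shares of cell clusters held fixed, as described below, this order of ratios was not kept.

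The other Hox clusters carry paralogs, copies of the same group number. Their summed levels, in the order FGFRi, 0, 0.75, 3 and 12 ng/ml FGF2, were 47.2, 221, 320, 337 and 279 CPM for HoxA, 22.1, 347, 571, 689 and 641 CPM for HoxB, and 28.0, 163, 209, 266 and 293 CPM for HoxD. HoxC was the second highest cluster at 0 to 12 ng/ml, below HoxB. Like HoxC, HoxA and HoxB were highest at 3 ng/ml and lower at 12 ng/ml, and HoxD was highest at 12 ng/ml. The paralogs of Hoxc13 summed to 0.544 CPM with the FGFRi and to between 1.28 and 2.06 CPM in the other libraries, so that the sum was lowest where Hoxc13 was highest. Over the doses they differed among themselves, with Hoxd13 at 0.528, 0.822, 1.11 and 1.498 CPM and Hoxa13 at 0.915, 0.405, 0.495 and 0.551 CPM from 0 to 12 ng/ml, and Hoxb13 had 1 to 13 UMIs per library. Hoxc5 was low beside its neighbors, and the group 5 genes of the other clusters were low too, at 15.2 to 27.4 CPM without the inhibitor against 91.3 to 170.3 CPM for group 4 and 80.8 to 165.9 CPM for group 8. Group 6 of the other clusters was as low, at 10.5 to 31.7 CPM, while Hoxc6 alone was at 49.7 to 69.1 CPM.

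Of 30 listed regulators and partners of Hox genes (Cdx factors, Wnt, FGF and retinoid genes, cofactors of the TALE class and chromatin regulators), 27 reached 1 CPM in the comparison of the FGFRi with 0 ng/ml FGF2. Among those with UMIs in both libraries, 5 were past the fold rule as higher at 0 ng/ml and 3 as lower. Wnt3a was past it as higher too, going from 0 to 70 UMIs (1.23 CPM at 0 ng/ml), a ratio of 19.6 with the 0 set to 3 UMIs. Of all 12828 genes, 4.43% were past the rule as higher and 7.9% as lower, and these shares include genes with 0 UMIs in 1 library. Cdx2, a direct activator of central Hox genes, was at 4.64 CPM with the FGFRi and 109, 188, 218 and 185 CPM from 0 to 12 ng/ml, so that like the HoxC sum it was highest at 3 ng/ml. Cdx1 and Cdx4 were at or under 0.201 CPM in all libraries. The TALE genes Meis1 and Meis2, whose products bind DNA together with Hox proteins, ran the other way, with Meis2 at 237 CPM with the FGFRi and 96.9, 54.1, 34.7 and 45.4 CPM from 0 to 12 ng/ml. From 0 to 12 ng/ml, 5 of the 27 were higher (Wnt3a, Fgf8, Fgf4, Cyp26a1 and Aldh1a2) and 2 lower (Meis1 and Meis2), where 3.58% and 6.77% of all 12686 genes were.

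The higher levels went with more cells in which a HoxC gene was detected. With each cell thinned to 10000 UMIs, so that depth was equal, 20.5% (18.5% to 22.5%) of the FGFRi cells had at least 1 HoxC UMI, against 63.3%, 78.3%, 80.8% and 76.7% in the cultures with 0, 0.75, 3 and 12 ng/ml FGF2. Without thinning the shares were 30.9%, 73.2%, 85.1%, 87.8% and 84.2%. For Hoxc8 alone the thinned shares were 6.56%, 46.8%, 61.5%, 63.6% and 56.5%, and for Hoxc4 1.81%, 19.1%, 27.8%, 32.6% and 27.7%. Before thinning, a cell with Hoxc8 had on average 1.84 UMIs of it with the FGFRi and between 5.23 and 6.12 in the other libraries, so that both the share of cells and the level per positive cell were lower with the inhibitor.

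No group of cells was known to lack HoxC RNA, so free RNA in the droplets could not be measured in such a group. Barcodes removed by the filters had HoxC sums of 28.2 CPM in the FGFRi library and 253, 283, 332 and 255 CPM from 0 to 12 ng/ml FGF2. How much of this, or of the low levels in retained cells, was free RNA was not tested. The lowest share was found among 35 FGFRi cells of a cluster led by Gm9112, Pkib and Esx1 (cluster 6 below), of which 1 had a HoxC UMI, 2.86% at a median depth of 25123 UMIs. At 0 ng/ml FGF2, 17.6% of the 119 cells of the same cluster had one, at a median depth of 31041 UMIs. The shares in the other clusters of that library were between 28.8% and 100%.

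In the cultures without the inhibitor, more cells had 2 or more HoxC genes than exactly 1. At 10000 UMIs, 2 or more different members were found in 49.2%, 62.6%, 67.5% and 59.3% of the cells from 0 to 12 ng/ml FGF2, and the most seen in a cell was 6. With the FGFRi 14.98% of the cells had exactly 1 member and 5.48% had 2 or more, and the most was 4. Hoxc8 and Hoxc9 were found together in 33.3% of the cells at 0 ng/ml, where the product of their separate shares was 21.1%, and in 42.1%, 43.3% and 35.3% at 0.75, 3 and 12 ng/ml (products 32.7%, 34.4% and 25.8%). With the FGFRi they met in 42 of 1662 cells, 2.53% against a product of 0.623%. Hoxc13 showed no such excess with Hoxc8 or Hoxc9 there. Of 57 cells with it, 2 had Hoxc8 and 3 had Hoxc9, 3.51% and 5.26% against 6.67% and 9.66% of the cells without it. These counts are too few to tell a lower share from an equal one. Shares with Hoxc4 (3.51% against 1.74%) and Hoxc10 (1.75% against 1.06%) were higher, and those with Hoxc6 and Hoxc5 lower, on at most 2 cells each.

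**Figure D3:**
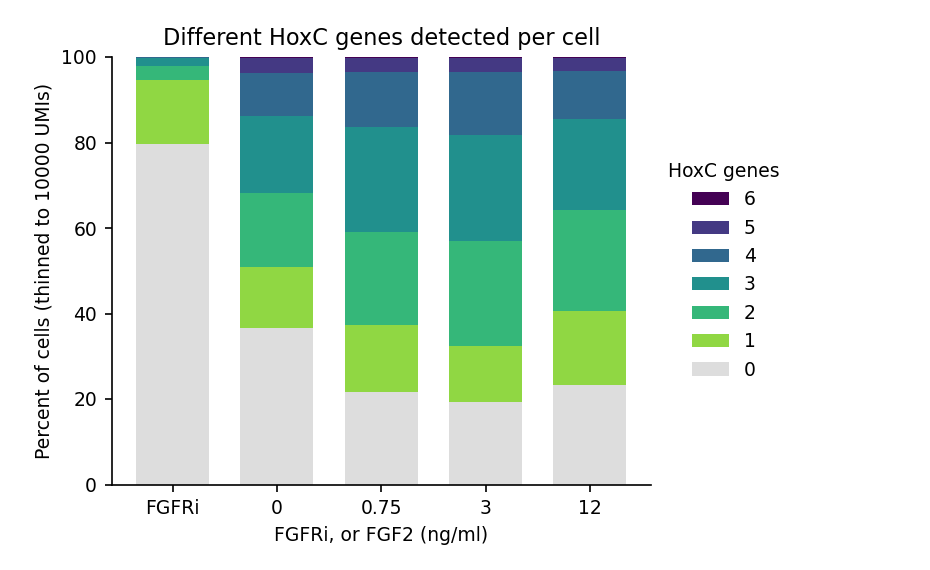
Percent of cells (each thinned to 10000 UMIs) in which 0 to 6 different HoxC genes were detected, for the FGFRi library and the 4 FGF2 doses. Bars are single libraries and add to 100%; the grey part, cells with no HoxC UMI, is 79.5% with the FGFRi and between 19.2% and 36.7% in the others.

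To see which cells carried the genes, the retained cells of all libraries were clustered with every Hox gene left out. This gave 7 clusters, numbered 0 to 6 by size. Cluster 0 was led by Epha5, Zbtb16, Lix1 and Greb1, and had the highest Cdx2. Cluster 1 had the highest Tbx6, Dll1, Dll3, Hes7 and Aldh1a2, 5 of the 6 detected among 10 listed markers of presomitic and somitic mesoderm. It also had the highest Osr1, Lhx1 and Foxf1, 3 of the 5 detected among 7 listed markers of intermediate and lateral plate mesoderm. Cluster 2 was led by Trim29, Dlx5 and Rab25, cluster 3 by Col8a1, Lce1h and Postn, and cluster 4 by Ltb, Ly6a and Sfn. Cluster 6 was led by Gm9112, Pkib and Esx1, and cluster 5 by Psmb8, Sprr2a3 and Ptgs1. In cluster 5 the primitive streak markers T, Mixl1 and Mesp1 were at their highest. Of the 1697 cells of cluster 3, 1511 came from the FGFRi library, 88.8% of that library, so that for these cells the cluster and the library cannot be told apart. Doublets were not removed.

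The HoxC level differed by over an order of magnitude between clusters. Over all libraries the sum was 673 CPM (667 to 679) in cluster 0, 358 CPM (354 to 363) in cluster 1 and 338 CPM (333 to 344) in cluster 2. It was 207 CPM (203 to 212) in cluster 5 and 156 CPM (153 to 159) in cluster 4. The lowest levels were 31.2 CPM (27.6 to 35.2) in cluster 6 and 23.4 CPM (22.1 to 24.8) in cluster 3. Cluster 0 held 18.6% to 30.3% of the cells of the 4 libraries without inhibitor and 32.1% to 50.8% of their HoxC UMIs. In the FGFRi library only 23 cells fell into it, and these had 223 CPM (182 to 271), against 23.0 CPM in the 1511 cells of cluster 3. At 0 ng/ml the 170 cells of cluster 3 were at 28.2 CPM (24.1 to 32.8) while cluster 0 was at 741 CPM (725 to 759).

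Within clusters the dose response was not that of the whole library. In cluster 1 the sum was lower at each higher dose, at 575 (551 to 600), 415 (402 to 429), 355 (346 to 364) and 316 (310.05 to 323) CPM. In cluster 2 it was higher, at 267 (258 to 277), 319 (311 to 326), 431 (418 to 444) and 436 (417 to 454) CPM. Cluster 0 went from 741 to 700.2, 647 and 622 CPM. Cluster 4 stayed between 149.8 and 167 CPM.

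The 6 members from Hoxc10 to Hoxc4 were lower at 12 than at 0 ng/ml in cluster 1 and higher in cluster 2. Hoxc13 was lower in cluster 2, at 0.824 against 2.58 CPM, but the value at 12 ng/ml rests on 179 cells and few UMIs. From 0 to 12 ng/ml FGF2, Hoxc9 went from 148 to 68.4 CPM, Hoxc8 from 232 to 127 CPM and Hoxc4 from 57.8 to 37.0 CPM in cluster 1, and Hoxc9 went from 78.6 to 124 CPM, Hoxc8 from 104 to 162 CPM and Hoxc4 from 18.6 to 32.1 CPM in cluster 2. The log2 ratio of the sum, 12 over 0 ng/ml, was −0.86 (−0.93 to −0.79) in cluster 1 and 0.70 (0.62 to 0.78) in cluster 2. The cluster shares changed at the same time: cluster 1 went from 6.96% to 44.0% of the cells from 0 to 12 ng/ml, and cluster 2 from 23.8% to 7.44%.

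When clusters 0, 1, 2 and 4, which held 80.4% to 87.6% of the cells, were weighted by their shares of UMIs at 0 ng/ml, the HoxC level was almost level over the doses. It was 344, 341, 349 and 338 CPM at 0, 0.75, 3 and 12 ng/ml with these weights, and 344, 415, 448 and 364 CPM in the same cells with each library's own shares. Hoxc13 still went down with these weights, from 1.24 to 1.04, 0.861 and 0.629 CPM. No interval was computed for the weighted levels, and those of Hoxc13 rest on few UMIs. This weighting was chosen after the data had been seen.

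**Figure D4:**
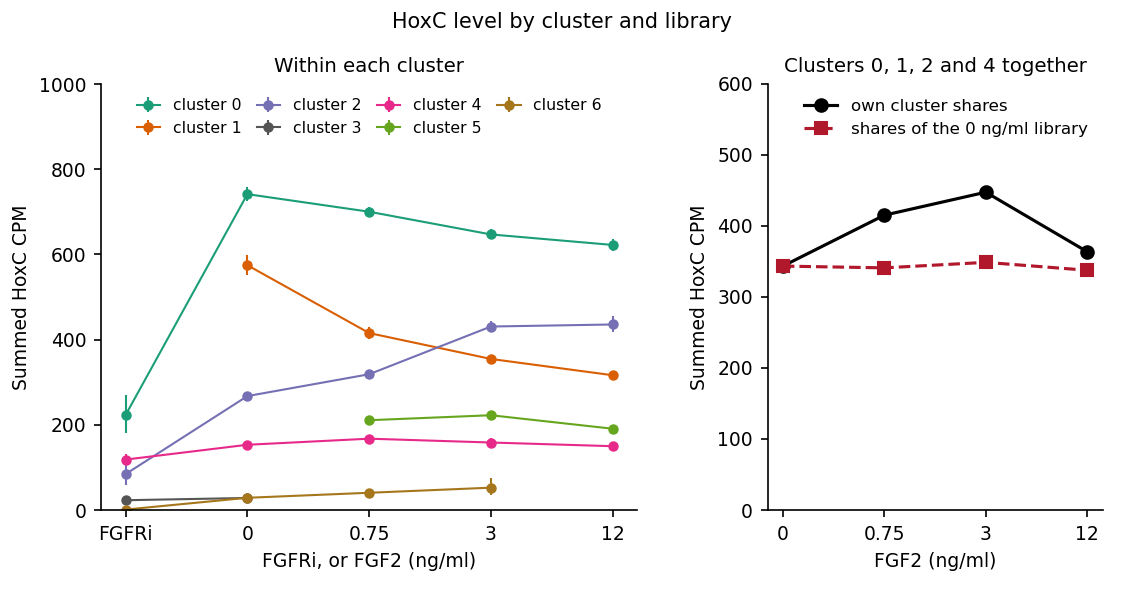
Left, summed HoxC CPM within each cluster (clusters made without Hox genes, at least 20 cells) in the FGFRi library and at the 4 FGF2 doses, with exact Poisson 95% intervals; cluster 1 goes down from 575 to 316 CPM over the doses and cluster 2 up from 267 to 436 CPM. Right, clusters 0, 1, 2 and 4 together, with each library's own cluster shares (344, 415, 448 and 364 CPM) and with the shares of the 0 ng/ml library (344, 341, 349 and 338 CPM).

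The mix of members differed between clusters as well. At 0 ng/ml FGF2, Hoxc4 gave 10.1% (8.81% to 11.4%) of the HoxC UMIs of cluster 1 and 3.87% (3.23% to 4.60%) of those of cluster 4, while Hoxc9 gave 25.8% (23.9% to 27.7%) and 37.5% (35.9% to 39.3%) and Hoxc10 2.90% (2.23% to 3.70%) and 7.72% (6.81% to 8.70%). Cells of cluster 4 thus had a larger part of their HoxC RNA from the 5′ side, at a lower total. Cluster 2 lay between them for Hoxc4, at 6.96% (6.09% to 7.91%).

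The cells were also split by whether a UMI of a single gene was found. Cells with at least 1 Cdx2 UMI had a HoxC sum of 96.2 CPM with the FGFRi (132 cells) and 383, 415, 420.3 and 353 CPM from 0 to 12 ng/ml FGF2. Cells without Cdx2 had 25.0 CPM (1569 cells) and 57.0, 75.5, 56.3 and 78.4 CPM. The ratio was lowest with the FGFRi, 3.84 (3.40 to 4.32), and between 4.50 and 7.46 in the other libraries. Cdx2-positive cells of the FGFRi library were thus nearer to the Cdx2-negative than to the Cdx2-positive cells of the other libraries. Cdx2 is more easily found in deeper cells. The split was also made on Cdx2 counts after thinning each cell to 10000 UMIs, with the HoxC CPM still taken from all UMIs of the cells. The log2 ratio was then 2.22 with the FGFRi and 1.78, 1.14, 0.98 and 0.98 from 0 to 12 ng/ml. The direction thus held in all 5 libraries while the order of the libraries did not.

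T/Bra, the marker of the primitive streak, split HoxC levels at low dose and not at high dose. From 0 to 12 ng/ml FGF2 the sums were 543, 460, 402 and 330.4 CPM in cells with a T UMI, and 199, 305, 390.3 and 320.1 CPM in cells without one. The ratio thus went from 2.73 (2.65 to 2.82) at 0 ng/ml to 1.03 (0.997 to 1.07) at 12 ng/ml, and at 3 ng/ml its direction turned with other gates (log2 ratio −0.03 with at least 3 T UMIs and −0.11 after thinning). With the FGFRi, 22 cells had a T UMI, and their HoxC sum was 115 CPM (92.2 to 141) against 29.4 CPM in the rest.

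The cadherins mark epithelial cells (Cdh1) and mesenchymal cells (Cdh2). Cells with Cdh2 and no Cdh1 UMI had a HoxC sum of 56.5 CPM with the FGFRi and 590.1, 577, 478 and 374 CPM from 0 to 12 ng/ml FGF2. Cells with Cdh1 and no Cdh2 had 15.3, 134, 225, 314 and 282 CPM. The gap between them, 4.40-fold (4.22 to 4.58) at 0 ng/ml, was 1.33-fold (1.27 to 1.38) at 12 ng/ml, and the narrowing came from both sides. With the FGFRi, Hoxc9 had a large gap, at 25.6 CPM in the Cdh2 cells and 1.92 CPM in the Cdh1 cells, a ratio of 13.4 (9.36 to 19.7), and Hoxc4 and Hoxc5 had intervals of the ratio that included 1.

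Hoxc13 was on the other side of this split. Its level was 2.11 CPM (34 UMIs) in Cdh2 cells and 5.24 CPM (90 UMIs) in Cdh1 cells of the FGFRi library, a ratio of 0.402 (0.263 to 0.603), and at 0 ng/ml FGF2 it was 0.664 and 2.22 CPM (10 and 52 UMIs). At 0.75, 3 and 12 ng/ml it was again higher in the Cdh1 cells, but there on 6 to 36 UMIs a gate, and at 12 ng/ml the interval of the ratio (0.156 to 1.13) included 1. Of the 116 FGFRi cells with Hoxc13, 75.9% had a Cdh1 UMI, against 55.5% of the rest, and 1.72% had a Cdx2 UMI against 8.20%. They were somewhat deeper, with a median of 27681.5 UMIs against 24259, and the part of this gap in the shares was not tested. Other HoxC genes were found in 26.7% of them and in 25.9% of the rest.

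**Figure D5:**
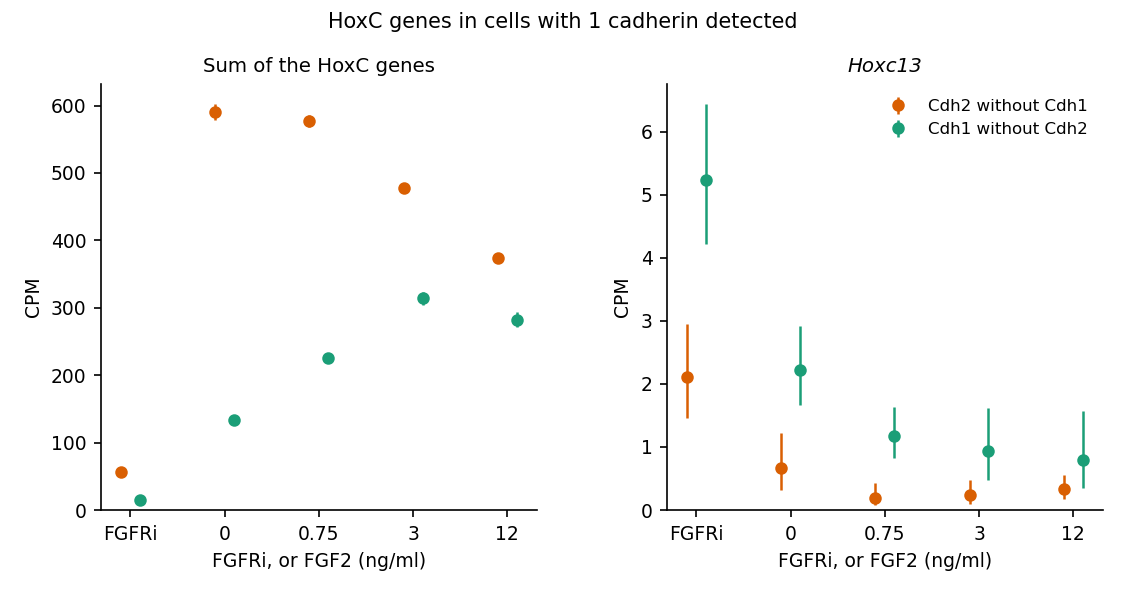
Summed HoxC CPM (left) and Hoxc13 CPM (right) in cells with a UMI of 1 cadherin and none of the other, for the FGFRi library and the 4 FGF2 doses, with exact Poisson 95% intervals for counting error. The sum is higher in Cdh2 cells in all 5 libraries and the gap narrows over the doses from 590.1 and 134 CPM to 374 and 282 CPM; Hoxc13 is higher in Cdh1 cells in all 5.

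By cluster, Hoxc13 was highest in cluster 3, at 3.43 CPM (2.94 to 3.99), and lowest in cluster 0, where the other members were highest, at 0.174 CPM (0.0867 to 0.311). In cluster 3 it was at 3.62 CPM (3.07 to 4.24) with the FGFRi and 2.33 CPM (1.27 to 3.90, 14 UMIs) at 0 ng/ml, so that the intervals of the same cluster in these libraries overlapped. At a finer clustering (Leiden resolution 0.5) it was highest among 816 cells led by Sostdc1, Tac2 and the keratin gene Krt14, at 5.27 CPM. For the FGFRi cells with Hoxc13, only genes at higher levels in either group were ranked against the rest, 3123 in all. A gene could thus enter through its level in the Hoxc13 cells alone, as those named here did. The most enriched of these were Cxcl14 (55.8 against 10.7 CPM), Sostdc1 (58.8 against 19.2 CPM) and Gjb2 (59.1 against 23.3 CPM), a list ranked by its own values and given as a description.

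Likeness was taken as Pearson's r of log2 levels over 24 sums of cells (a cluster within a library, sharing libraries and clusters), over 9698 genes. All Hox genes, other features of the Hox clusters and genes at low levels in every sum were left out of this ranking. How genes of the other Hox clusters would rank was thus not tested. Of the genes ranked, those most like the HoxC sum were Mllt3 (r = 0.968), Pclaf (0.961), Msh3 (0.951), Ptma (0.950) and Sinhcaf (0.948). The most opposed were Bex3 (−0.954), Tiparp (−0.946) and Nbl1 (−0.943). Cdx2 stood at 0.833, at rank 240 of the 9698 genes. Among the members, the central and 3′ genes were most alike, with 0.976 for Hoxc8 and Hoxc6 and 0.974 for Hoxc5 and Hoxc4. Hoxc8 and Hoxc4, which are not neighbors, were as alike, at 0.976. Hoxc10 was most like its neighbor Hoxc9 (0.916). Hoxc13 was opposed to the 7 other members compared, from −0.451 with the sparse Hoxc11 to −0.861 with Hoxc4.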

How the data were processed

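Single cell RNA sequencing libraries (10x 3′ chemistry) were made from 5 cultures, and the deposited matrices hold the authors' UMI counts per gene and barcode, not normalized, mapped to mm10 with Cell Ranger (the matrix headers name version 5.0.1). The cell filters of the study had not been applied to these matrices and were applied here: barcodes with at least 2500 genes and at most 10% mitochondrial UMIs were kept, 10653 in all. No doublet removal is described in the sources used here and none was done. Total retained counts per library were 47824660 to 81538748 UMIs.

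For each library, the counts of a HoxC gene were added up over retained cells and divided by all their UMIs (CPM). Intervals are exact Poisson for levels, exact conditional for ratios and Clopper-Pearson for shares, at 95%, and cover counting error only. With 1 library per condition no test was made. Genes were named by a fixed list (the 9 members, their paralogs, neighbors within 100000 bases, gate genes and regulators), and the members and lists were chosen with earlier results of these data known. For shares of cells, each cell was thinned to 10000 UMIs. Clustering (scanpy 1.11.5, Leiden with leidenalg 0.10.2, 50 components, 15 neighbors) left out 48 features by symbol, the Hox genes and noncoding RNAs named after them or as Hotair. Other noncoding features of the Hox clusters, such as Haglr and Gm53, were not left out by this rule. Positions and sequences come from GENCODE vM21 on GRCm38, where 32235 of 32285 gene IDs matched; the sequences of the other 3 members are not reported here. The alternatives were other cell filters, totals, TMM scaling (edgeR 4.0.16), fold rules, clusterings and gates. Scripts were tested on simulated data. Python 3.11.15, numpy 2.4.6, pandas 2.3.3 and scipy 1.17.1 were used.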

Additional observations from a re-analysis of the deposited data

How the results depend on the processing

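Without replicates the limit is the single culture per condition, and no setting can measure the spread between cultures. No paired analysis was possible because each condition has 1 library and no result comes from a test. The ratios of the single members were recomputed under the other cell filters, totals, TMM scaling and equal cell weights. This gave 234 values over members, comparisons and these settings. Of these, 6 moved by more than counting error. No ratio whose main interval excluded 1 changed direction under these settings, and for intervals that included 1 the direction was not counted. The cluster shares of the 0 ng/ml library were not among these settings. They were applied in clusters 0, 1, 2 and 4 only, while the main ratios cover all retained cells. With those shares the direction turned for Hoxc9, Hoxc6 and Hoxc5 at 0.75 over 0 ng/ml. It also turned for Hoxc6 at 12 over 3 ng/ml and for Hoxc5 at 12 over 0 ng/ml, and for no other member whose main interval excluded 1. The log2 ratio of the HoxC sum at 0 ng/ml FGF2 over the FGFRi, 3.22, was 3.30 with at least 4000 genes per cell and 3.06 with each cell given the same weight. At 0.75 over 0 ng/ml, 0.41, it was 0.46 with at most 5% mitochondrial UMIs, 0.45 with mitochondrial and ribosomal protein genes left out of the total and 0.34 with equal cell weights. At 12 over 0 ng/ml, 0.20, it was 0.23 with at most 5% mitochondrial UMIs and 0.17 with equal cell weights. With the cluster shares of the 0 ng/ml library in clusters 0, 1, 2 and 4, chosen after seeing the data, the ratio was −0.010 at 0.75 over 0, 0.032 at 3 over 0.75, −0.047 at 12 over 3 and −0.025 at 12 over 0 ng/ml, so that the direction turned in 2 of these 4 comparisons. The move from the main ratios holds both the fixed shares and the cells left out. With each library's own shares the sums in these clusters were 344, 415, 448 and 364 CPM from 0 to 12 ng/ml. Hoxc13 was no longer past the fold rule, and the counts of lower members were 0 in place of 1 at 0 ng/ml against the FGFRi and at 12 against 0 ng/ml, with a minimum of 5 or 10 CPM or a ratio of at least 3. With a ratio of at least 1.5, 1 member was past it as higher and 1 as lower at 0.75 against 0 ng/ml. The log2 ratio of Cdx2-positive over Cdx2-negative cells, with 3 UMIs as the gate, was 2.42 with the FGFRi and 3.08 at 0 ng/ml. With the gate set on thinned counts it was 2.22 with the FGFRi and 1.78, 1.14, 0.98 and 0.98 from 0 to 12 ng/ml, with main values of 1.94, 2.75, 2.46, 2.90 and 2.17. The T split at 3 ng/ml, 0.04, was −0.032 with 3 UMIs as the gate and −0.11 with the gate set on thinned counts. The cause of these changes was not tested.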
